A study of Mus musculus with 10 samples.

Results

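The collagen chain genes of the mouse were followed through a glioma model, from transformed astrocytes to the cells that propagate the tumour. Members were the features of the expression matrix whose symbol consists of Col, a type number, a and a chain number, and 43 of 23230 features met this rule. By the known structure of the proteins, 11 of the 43 are fibrillar collagens, 6 are the basement membrane chains of type IV, and the other 26 form networks, beaded filaments, anchoring fibrils, membrane-bound chains or chains that decorate fibrils. The measurement was RNAseq, given as FPKM, a fragment count scaled both by library size and by transcript length, so that chains can be set side by side.

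The 10 libraries came from cells that all lack *Ink4a/Arf* (p16/p19) and all carry a retroviral vector for human EGFRvIII, a truncated receptor that is always active. AstroEGFR* (3 libraries) were C57BL/6 astrocytes of the cerebral cortex, taken at postnatal day 5 and kept below passage 10. PT (4 libraries) were glioma propagating cells, below the same passage, cultured from tumours that grew after such astrocytes were transplanted into CD1 Nude mice. AstroEGFR* *Zfp423* (3 libraries) were the astrocytes with a further vector overexpressing *Zfp423*, a zinc-finger transcription factor; the labels call that vector lentiviral and the study retroviral. Each culture gave 1 library. By the study's own scheme, which the sample labels do not repeat, PT1 and PT4 both go back to astrocyte batch 1, PT2 to batch 2 and PT3 to batch 3, and each *Zfp423* culture was made from the AstroEGFR* batch of its own number. The study's astrocyte medium held fetal bovine serum, whereas PT grew on laminin in serum-free medium with growth factors. Medium, substrate and tumour passage therefore cannot be told apart in the comparison of PT with AstroEGFR*.

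Collagen chains wind around each other in the endoplasmic reticulum, are secreted as procollagen, and are trimmed and cross-linked outside the cell. Fibrillar collagens (types I, II, III, V, XI, XXIV and XXVII here) give tensile strength, type IV builds the sheet of basement membranes, and the remaining types link, anchor or cap these structures. In the brain, fibrillar collagen is found mainly in the meninges and around large vessels, type IV lies under the vessel wall and the pial surface, and cultured astrocytes and gliomas can make both.

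Libraries differed in ways the labels do not give. The share of FPKM on small non-coding RNA and histone features, picked by symbol, was between 0.315% and 6.08% in AstroEGFR*1, AstroEGFR*3, PT1, PT3 and PT4, and between 29.6% and 54.8% in AstroEGFR*2, PT2 and all 3 *Zfp423* libraries. Relative depth, read from the smallest values and set to 1 in AstroEGFR*1 *Zfp423*, was 0.117 in AstroEGFR*3 and 0.154 in PT3, against 0.844 to 1.69 elsewhere. AstroEGFR*3 *Zfp423* had its highest correlation with AstroEGFR*2 (Pearson's r = 0.884 over features), whereas the other *Zfp423* libraries were each other's nearest (r = 0.874). The nearest library of PT2 was also AstroEGFR*3 *Zfp423* (r = 0.837), and that of AstroEGFR*1 was PT1 (r = 0.860). AstroEGFR*2, PT2 and AstroEGFR*3 *Zfp423* all had the high share of small non-coding RNA, whose part in these correlations was not tested. *Zfp423* itself was at 3.25 to 4.30 FPKM in AstroEGFR* and at 15.7, 9.73 and 105 in the *Zfp423* libraries, above its own batch each time, in the order the labels give. The 8 astrocyte markers summed to between 62.2 and 1069 FPKM. The lowest sum was that of AstroEGFR*2 *Zfp423*, where *Gja1* alone had 52.2 FPKM while *Gfap* was at 1.11, *Aldh1l1* at 1.69, *S100b* at 0.138, *Slc1a2* at 0.154 and *Aqp4* at 0.027 FPKM.

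Promoter sequence is shown for 3 chains that stand for the range of behaviour below: *Col3a1*, a fibrillar chain with wide swings, *Col5a3*, a fibrillar chain above its own batch in 3 of 4 PT cultures, and *Col8a1*, the network chain with the second largest difference. Each is the 250 bases before the start, 5′ to 3′ on the strand of the gene, from RefSeq on GRCm38.p6, in lower case, with motifs in capitals. The TATA box was searched on both strands as TATAAA. The GC box was searched likewise as GGGCGG, and the box named for its letters as CCAAT. None of the 3 windows overlaps an annotated exon. They lie at chr1:45311288-45311537 (*Col3a1*, plus strand), chr9:20815068-20815317 (*Col5a3*, minus strand) and chr16:57754738-57754987 (*Col8a1*, minus strand).
Col3a1: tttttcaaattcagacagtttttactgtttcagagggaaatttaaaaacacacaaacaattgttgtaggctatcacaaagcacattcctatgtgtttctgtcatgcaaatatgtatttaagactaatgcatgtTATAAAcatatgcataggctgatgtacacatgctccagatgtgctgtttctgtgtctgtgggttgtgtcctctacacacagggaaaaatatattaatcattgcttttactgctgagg
Col5a3: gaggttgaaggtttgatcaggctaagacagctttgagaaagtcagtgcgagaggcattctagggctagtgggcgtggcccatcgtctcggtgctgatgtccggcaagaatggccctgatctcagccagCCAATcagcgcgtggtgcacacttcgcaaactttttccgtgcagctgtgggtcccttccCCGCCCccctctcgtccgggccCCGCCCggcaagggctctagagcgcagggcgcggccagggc
Col8a1: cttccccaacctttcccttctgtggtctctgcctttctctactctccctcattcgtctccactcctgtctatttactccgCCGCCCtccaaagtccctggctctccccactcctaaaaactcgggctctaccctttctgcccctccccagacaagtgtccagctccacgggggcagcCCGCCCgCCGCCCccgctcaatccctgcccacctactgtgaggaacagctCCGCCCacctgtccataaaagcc
The *Col3a1* window holds 1 TATA box, at 117 bases before the start, and no GC box. The *Col5a3* window holds a CCAAT box at 122 bases before the start and GC boxes, on the other strand, at 63 and 41. In the *Col8a1* window a GC box was found 4 times on the other strand, at 170, 73, 66 and 23 bases before the start. Of the 43 collagen genes, 35 matched a window, with 38 windows in all. The GC box was in 22 of these (57.9%) and in 32.7% of all 32851 windows of this length. The CCAAT box was in 13 (34.2%) against 33.8%, and the TATA box in 5 (13.2%) against 12.4%. The RefSeq starts of *Col4a1* and *Col4a2* are 21 bases apart on chromosome 8, on opposite strands, at 11312826 and 11312805.

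In AstroEGFR* the 43 genes summed to 1143, 1622 and 7468 FPKM. PT had 617, 343, 879 and 447 FPKM, so the PT sums all lay under those of AstroEGFR*. The *Zfp423* libraries had 6844, 9143 and 587 FPKM. The first and second were 5.99 and 5.64 times their own AstroEGFR* batch, and the third was 12.7 times below its batch. As a share of all FPKM, collagens made up 0.317%, 0.307% and 1.60% in AstroEGFR*, 0.0565% to 0.182% in PT and 1.14%, 1.31% and 0.0682% in the *Zfp423* libraries.

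The make-up of the sum also varied between libraries. Fibrillar chains gave 33.9%, 49.4% and 72.2% of it in AstroEGFR*, 18.3% to 59.6% in PT, and 72.0%, 79.0% and 54.9% in the *Zfp423* libraries. Type IV chains gave 13.6% to 25.2% in AstroEGFR* and 13.7% to 39.2% in PT, so the shares overlapped between these groups. The libraries with the largest sums, AstroEGFR*3 and the first and second *Zfp423* libraries, were also those with the largest fibrillar share, at 72.0% or more. The leading gene differed between libraries. It was *Col8a1* in AstroEGFR*1 (25.0% of the sum), *Col1a2* in AstroEGFR*2 (21.2%) and *Col1a1* in AstroEGFR*3 (24.3%), *Col18a1* in PT1 (26.9%) and PT4 (20.1%), *Col4a1* in PT2 (26.0%) and *Col3a1* in PT3 (27.5%).

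**Figure D1:**
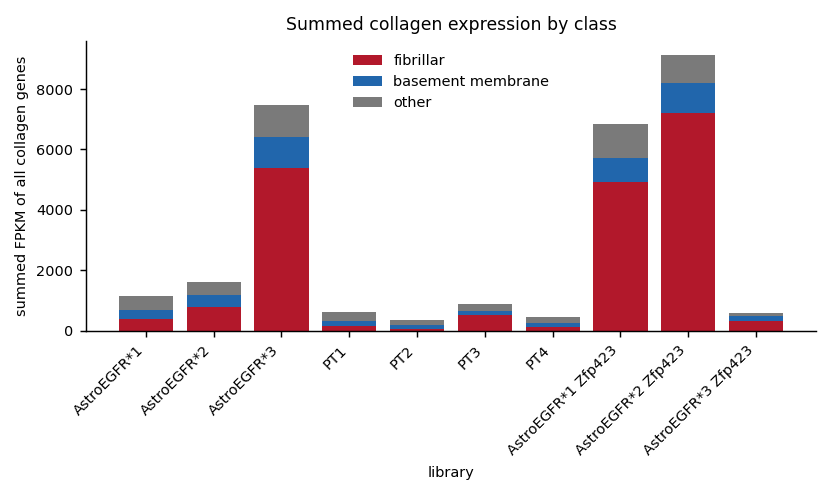
Bars give the summed FPKM of the 43 collagen genes in each of the 10 libraries, stacked by class (fibrillar, basement membrane, other). The PT bars lie between 343 and 879, below every AstroEGFR* bar, and the *Zfp423* bars stand at 6844, 9143 and 587.

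**Figure D2:**
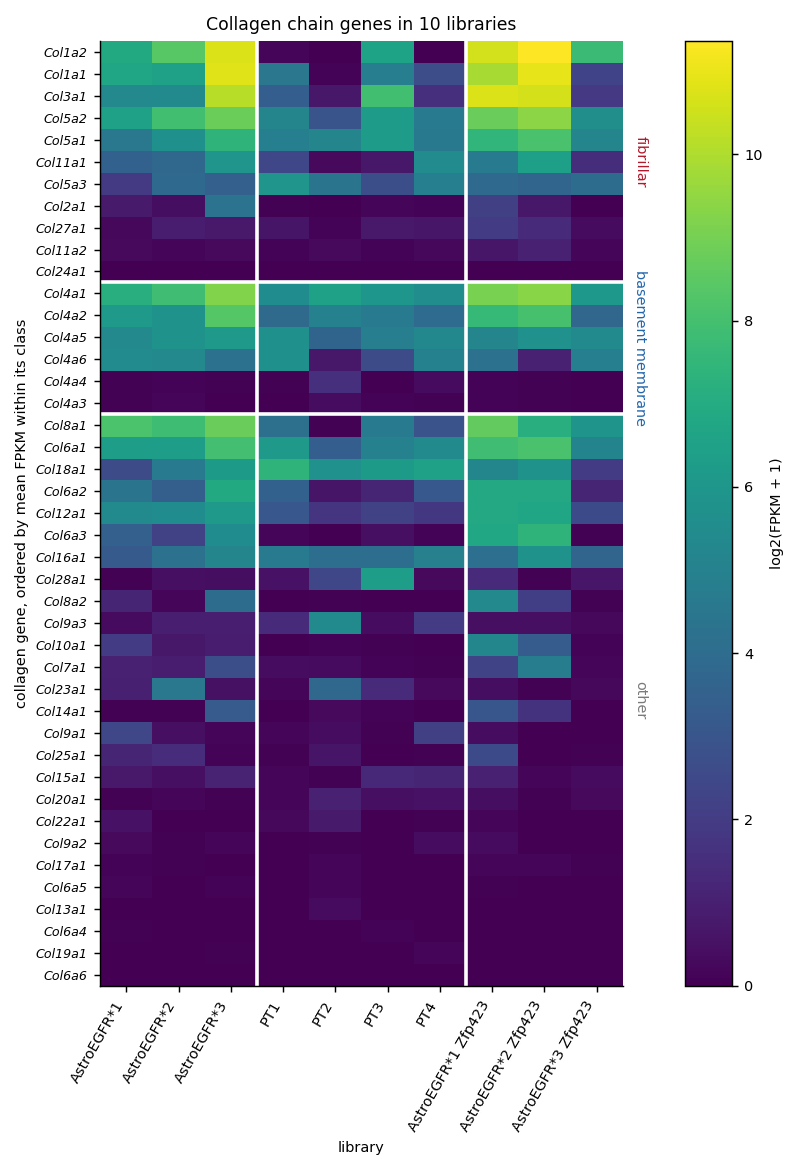
Colour gives log2(FPKM + 1) of each of the 43 collagen genes (rows, grouped by class and ordered by mean FPKM) in the 10 libraries (columns, grouped by culture). Most of the lower rows of each class are near 0 in every library. The rows of *Col1a1*, *Col1a2*, *Col3a1*, *Col4a1* and *Col4a2* are brightest in AstroEGFR*3 and in the *Zfp423* libraries of batches 1 and 2. Among the other collagens, *Col8a1* is dimmer in AstroEGFR*2 *Zfp423* (141 FPKM) than in AstroEGFR*1 (286 FPKM), and *Col18a1* is brightest in PT1 (166 FPKM).

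The comparison of PT with AstroEGFR* asked which collagen chains differ between the tumour-propagating cells and the astrocytes they started from. *Col12a1*, a fibril-associated chain that sits on the surface of collagen fibrils, fell in PT, and it was the only collagen past the threshold (limma on log2(FPKM + 1), adjusted p below 0.05 over all features averaging 1 FPKM or more). Of the 43 genes, 26 passed that filter. PT had the lower mean for 21 of them and the higher mean for 5. The 1 call among 26 stands against 0.922% of the 12261 features called lower in PT and 0.318% called higher. At an unadjusted p below 0.05, 11 of 26 (42.3%) were lower, where 7.69% of all features were, and 1 (*Col18a1*) was higher, where 5.88% of all features were.

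All PT libraries lay below all AstroEGFR* libraries for 12 of the 26 (46.2%), against 7.81% of all features tested. The reverse, every PT library above, held for 0 of 26, against 6.95% of all features. The exact permutation test, two-sided, gave its smallest possible p of 0.0286 for 9 of the 26, all lower in PT, and for 5.51% of all features in that direction. That p cannot pass a correction over so many features. The filter is a mean over both groups, so a gene can pass it through AstroEGFR* alone. *Col2a1*, *Col6a3*, *Col7a1* and *Col8a2* did so, with PT means of at most 0.166 FPKM, and they are among both the 12 and the 9. For such genes, lying lower in PT goes with passing the filter. The median difference in mean log2(FPKM + 1) over the 26 was −1.74, beside 0.027 over all features tested.

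Fibrillar chains had the lowest median difference, −2.60 over 8 tested of 11, with 7 lower, 1 higher and 4 without overlap between the groups. For the type IV chains the median was −1.85 over 4 tested of 6, with 4 lower and 2 without overlap. Over the other collagens it was −1.17 over 14 tested of 26, with 10 lower, 4 higher and 6 without overlap. These class medians are given as a description, since differences between classes were not tested.

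With the astrocyte batch as a replicate block, in which each PT culture is compared with the batch it came from, 5 collagens passed (19.2% of 26, against 2.68% of all features called lower). These were *Col12a1* (adjusted p = 0.0180), *Col1a2* (0.0206), *Col8a1* (0.0300), *Col6a3* (0.0347) and *Col1a1* (0.0380). Each of these 5 was lower than its own batch in 4 of 4 PT libraries.

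**Figure D3:**
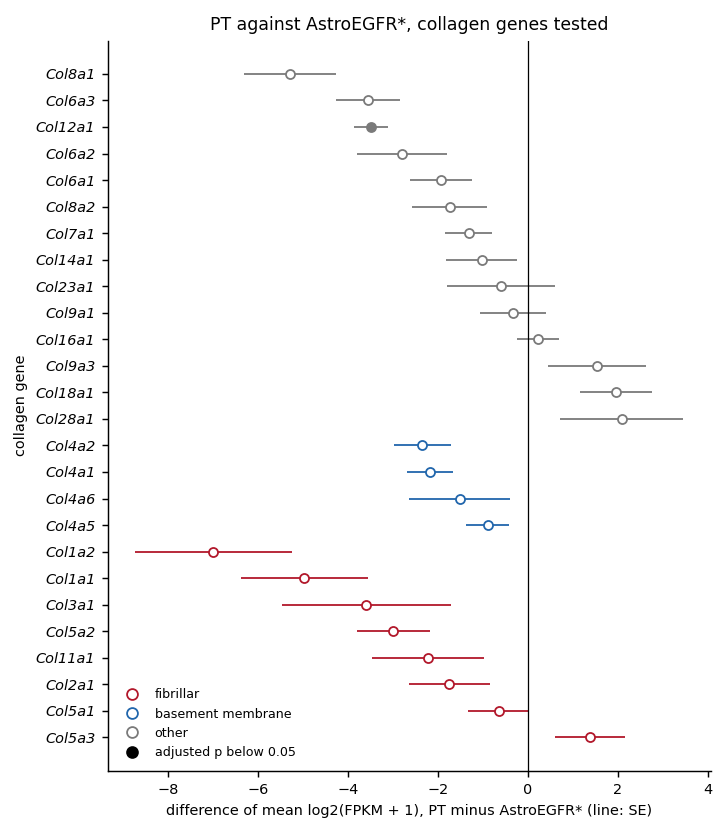
Points give the difference of mean log2(FPKM + 1), PT (n = 4) minus AstroEGFR* (n = 3), for the 26 collagen genes tested, coloured by class, with lines for the standard error; the filled point passed the adjusted threshold of 0.05 without the block. Of the points, 21 lie left of 0, from *Col1a2* at −7.00 to *Col9a1* at −0.33.

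Type I collagen, the main fibril of bone, skin and scar, is built from the chains of *Col1a1* and *Col1a2*. *Col1a1* had 103, 90.9 and 1816 FPKM in AstroEGFR* and 21.5, 0.0933, 28.4 and 5.38 FPKM in PT. *Col1a2* had 119, 343 and 1750 FPKM in AstroEGFR*, and 0.161, 0.00354, 94.9 and 0.0114 FPKM in PT. In neither gene did the groups overlap, and in both AstroEGFR*3 was far above the other AstroEGFR* libraries. The difference on the log2(FPKM + 1) scale was −4.97 ± 1.42 (SE) for *Col1a1* (adjusted p = 0.166) and −7.00 ± 1.74 for *Col1a2* (adjusted p = 0.123). The chains did not keep a constant ratio. *Col1a1* stood at 0.265 to 1.04 times *Col1a2* in AstroEGFR*, at 133, 26.3 and 474 times in PT1, PT2 and PT4, where *Col1a2* was below 1 FPKM, and at 0.299 times in PT3.

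*Col3a1*, whose product forms fibrils alongside type I in extensible tissues, had 39.4, 43.0 and 1117 FPKM in AstroEGFR* and 9.46, 0.637, 242 and 1.85 FPKM in PT. PT3 exceeded the first and second AstroEGFR* libraries, so the groups overlapped (difference −3.59 ± 1.88, adjusted p = 0.464). PT3 was nevertheless below its own batch, as were the other PT libraries.

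Type V collagen is a minor fibrillar type that sets the diameter of type I fibrils. *Col5a2* had 89.6, 245 and 452 FPKM in AstroEGFR* and 34.5, 6.76, 75.1 and 25.1 FPKM in PT, without overlap (−2.99 ± 0.82, adjusted p = 0.154). Its partner *Col5a1* had 22.6, 51.0 and 165 FPKM in AstroEGFR* and 29.0, 34.8, 76.3 and 22.9 FPKM in PT. The groups overlapped widely (−0.65 ± 0.68, adjusted p = 0.751), and the ratio of *Col5a1* to *Col5a2* was 0.208 to 0.366 in AstroEGFR* and 0.841 to 5.15 in PT. *Col5a3*, a further chain of type V, was the fibrillar gene with the higher mean in PT, with 2.86, 13.7 and 10.3 FPKM in AstroEGFR* and 59.2, 20.0, 5.59 and 29.4 FPKM in PT (1.38 ± 0.77, adjusted p = 0.499). PT3 was below its own batch, the other PT libraries above theirs. The cartilage-type chains *Col2a1* and *Col11a1* had differences of −1.75 (adjusted p = 0.453) and −2.21 (adjusted p = 0.50).

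The basement membrane chains *Col4a1* and *Col4a2* form the common type IV molecule. *Col4a1* had 138, 233 and 602 FPKM in AstroEGFR* and 45.1, 89.5, 61.0 and 46.9 FPKM in PT. *Col4a2* had 66.8, 54.7 and 329 FPKM in AstroEGFR* and 14.1, 30.8, 25.7 and 14.6 FPKM in PT. Both were lower in each PT library than in any AstroEGFR* library, with differences of −2.18 ± 0.51 (adjusted p = 0.107) and −2.35 ± 0.63 (adjusted p = 0.148). PT libraries differed little among themselves here: the SD of log2(FPKM + 1) was 0.45 for *Col4a1* and 0.54 for *Col4a2*, against 2.17 for *Col1a1* and 3.25 for *Col1a2*. The ratio of *Col4a1* to *Col4a2* was 1.83 to 4.26 in AstroEGFR* and 2.38 to 3.22 in PT.

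*Col4a5* and *Col4a6*, whose chains join in the type IV molecule of other basement membranes, overlapped between the groups. *Col4a5* had 40.4, 56.6 and 67.3 FPKM in AstroEGFR* and 51.0, 11.6, 28.4 and 38.1 FPKM in PT (−0.89 ± 0.48, adjusted p = 0.480). *Col4a6* had 43.2, 39.3 and 18.3 FPKM in AstroEGFR* and 51.1, 0.653, 5.05 and 30.8 FPKM in PT (−1.52 ± 1.13, adjusted p = 0.629). PT1 and PT4, from the same batch, were above PT2 and PT3 in both genes, as they were in the summed oligodendrocyte lineage markers, whose part in this was not tested. *Col4a3* and *Col4a4*, the chains of the kidney glomerulus, did not exceed 0.316 and 1.86 FPKM in any library and were under the filter.

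Among the other collagens, type VI forms beaded filaments around cells. *Col6a1* had 81.4, 80.2 and 252 FPKM in AstroEGFR* and 67.7, 9.38, 30.9 and 41.1 FPKM in PT (−1.93 ± 0.69, adjusted p = 0.281). *Col6a2* had 20.0, 9.96 and 120 FPKM in AstroEGFR* and 10.4, 0.583, 1.25 and 7.86 FPKM in PT (−2.80 ± 0.99, adjusted p = 0.280). *Col6a3*, the long chain that completes the molecule, had 10.0, 3.63 and 45.2 FPKM in AstroEGFR*; in PT it had 0.0983, 0.381 and 0.0818 FPKM and was listed at 0 in PT2 (−3.56 ± 0.71, adjusted p = 0.0666). The 3 chains thus did not differ by the same amount: *Col6a1* stayed at 9.38 FPKM or more in PT while *Col6a3* did not exceed 0.381 FPKM in any PT library. *Col6a4*, *Col6a5* and *Col6a6* did not exceed 0.114 FPKM anywhere.

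*Col12a1* had 42.1, 45.4 and 69.2 FPKM in AstroEGFR* and 7.40, 2.23, 3.69 and 2.59 FPKM in PT. The groups were far apart relative to their spread, with AstroEGFR* at 5.70 ± 0.38 (SD, n = 3) on the log2(FPKM + 1) scale and PT at 2.21 ± 0.62 (SD, n = 4). The difference was −3.49 ± 0.38 (SE), with a limma adjusted p of 0.0109. *Col12a1* was below its own batch in 4 of 4 PT libraries, by 2.36 to 3.90 on the log2 scale. Without AstroEGFR*1, batch 2 or batch 3 the difference was −3.63, −3.40 and −3.28, and its adjusted p was 0.0615, 0.0586 and 0.0961.

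Type VIII collagen forms short-chain networks under endothelium and in the cornea. *Col8a1* had 286, 227 and 431 FPKM in AstroEGFR*, with little spread there (SD of log2(FPKM + 1) 0.47), and 17.2, 0.0464, 24.9 and 6.61 FPKM in PT (−5.28 ± 1.02, adjusted p = 0.0624). Its partner *Col8a2* was low, with 1.26, 0.116 and 15.1 FPKM in AstroEGFR* and at most 0.0635 FPKM in PT (−1.74 ± 0.84, adjusted p = 0.421).

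*Col18a1*, a multiplexin chain whose end is released as endostatin, went the other way from most members. It too is found in basement membranes but was counted among the other collagens, so the values of the basement membrane class are those of type IV only. *Col18a1* had 5.15, 24.0 and 73.3 FPKM in AstroEGFR* and 166, 53.3, 71.2 and 90.0 FPKM in PT (1.96 ± 0.80, limma adjusted p = 0.338). AstroEGFR*3 overlapped with PT, and PT3 was level with its own batch (difference −0.04), whereas PT1, PT2 and PT4 were above theirs by 4.76, 1.12 and 3.89. *Col28a1*, *Col9a3* and *Col16a1* also had higher means in PT, by 2.09, 1.55 and 0.23 on the log2(FPKM + 1) scale (adjusted p = 0.576, 0.608 and 0.885). *Col28a1* had 82.8 FPKM in PT3 and at most 4.28 FPKM in the other libraries, and it was above its own batch in 4 of 4 PT libraries. *Col9a3* had 42.7 FPKM in PT2 and at most 3.02 FPKM elsewhere, and was above its own batch in 3 of 4.

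**Figure D4:**
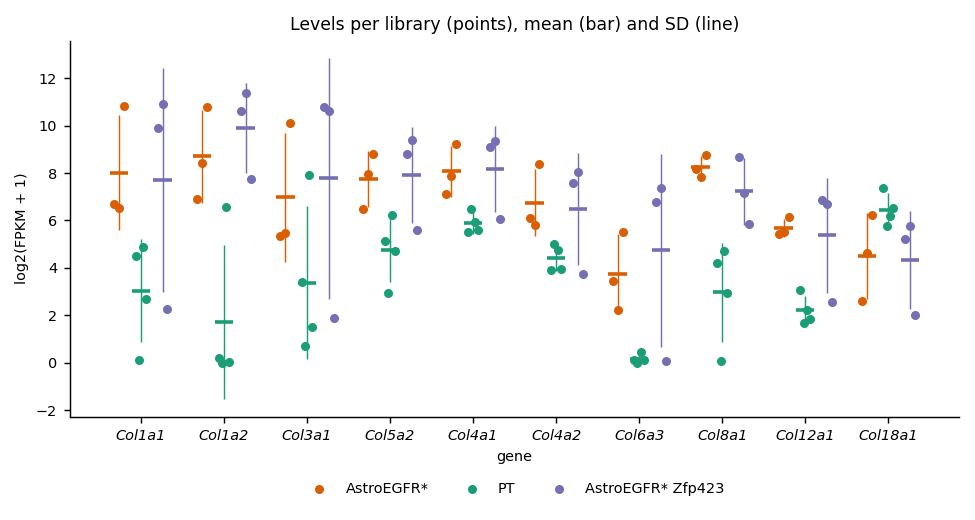
Points give log2(FPKM + 1) of 10 collagen genes in each library, coloured by group, with bars for the group mean and lines for the SD (n = 3 AstroEGFR*, 4 PT and 3 AstroEGFR* *Zfp423*). The *Col12a1* points of PT lie well below those of AstroEGFR*, those of *Col18a1* are mostly above, and in every gene shown 1 *Zfp423* library, that of batch 3, is the lowest of its group.

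The 17 collagens under the filter had means of at most 0.734 FPKM over the 7 libraries of AstroEGFR* and PT, the next member above it being *Col7a1* at 1.16. They were *Col4a3*, *Col4a4*, *Col6a4*, *Col6a5*, *Col6a6*, *Col9a2*, *Col10a1*, *Col11a2*, *Col13a1*, *Col15a1*, *Col17a1*, *Col19a1*, *Col20a1*, *Col22a1*, *Col24a1*, *Col25a1* and *Col27a1*. Without the filter all 43 were tested, 1 was called, again *Col12a1*, and the median difference was −0.61.

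Genes for the synthesis and processing of collagen were called in neither direction. Of 27 synthesis and processing genes in the matrix, 23 were tested, 0 were called by limma, 10 had the lower and 13 the higher mean in PT, and the median difference was 0.074. At an unadjusted p below 0.05, 2 of the 23 were lower and 2 were higher, near the 7.69% and 5.88% of all features; they are named here after their values were seen. The lower ones were *P4ha3*, a subunit of prolyl hydroxylase (−3.64, adjusted p = 0.0964), and *Pcolce2* (−1.61, adjusted p = 0.337). The higher ones were *Glt25d2* (2.18, adjusted p = 0.0774) and *Adamts14*, a protease that trims procollagen (1.68, adjusted p = 0.105). Groups did not overlap for *P4ha3*, *Glt25d2* and *Adamts14*. *Serpinh1*, the chaperone of procollagen, had 435, 625 and 1101 FPKM in AstroEGFR* and 688, 1194, 1488 and 647 FPKM in PT (0.49 ± 0.49, adjusted p = 0.734). *P4hb* (0.36, adjusted p = 0.796) and *Ppib* (0.33, adjusted p = 0.788), which serve proline hydroxylation and folding, and *Sparc*, a collagen-binding matrix protein (−0.71, adjusted p = 0.745), were likewise within the spread. Of 11 receptor and uptake genes, 7 were tested, 0 were called by limma, 5 had the lower and 2 the higher mean, and the median was −0.21. At an unadjusted p below 0.05, 2 of the 7 were lower, where 7.69% of all features were. They were the integrin subunits *Itga11* (−2.76, limma adjusted p = 0.132) and *Itga1* (−1.50, adjusted p = 0.109), both without overlap between the groups.

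Markers of other cells that could be present moved with these values, and their part in the differences was not tested. Among 9 pericyte and smooth muscle markers, 4 were tested and all 4 were called lower in PT (*Pdgfrb*, *Acta2*, *Tagln* and *Cnn1*), where 0.922% of all features were. The sum over the 9 was 1121 to 3623 FPKM in AstroEGFR* and 1.55 to 24.8 FPKM in PT, while *Myh11*, *Des*, *Abcc9* and *Kcnj8* did not exceed 0.310 FPKM in any library. Among 11 fibroblast and meninges markers, 9 were tested, 8 had the lower mean and 0 were called by limma. At an unadjusted p below 0.05, 7 of the 9 were lower, where 7.69% of all features were. The sum over the 11 was 145 to 1106 FPKM in AstroEGFR* and 52.7 to 292 FPKM in PT. *Prrx1*, with a difference of 0.02, gave 251 of the 292 FPKM, which was the sum in PT3. Among the AstroEGFR* and PT libraries, the sum of the fibroblast markers was highest in AstroEGFR*3, as was that of the collagens. Over 7 microglia markers the sum was 5.79 to 38.6 FPKM in AstroEGFR* and 0.219 to 2.53 FPKM in PT. Most of it in AstroEGFR* was *Tmem119*, the 1 tested, at 7.61, 4.89 and 38.0 FPKM there and at most 0.626 FPKM in PT (−3.25, adjusted p = 0.0624). The others did not exceed 1.53 FPKM in AstroEGFR*, and *P2ry12* was at 2.10 FPKM in PT4. Oligodendrocyte lineage markers summed to 66.8 to 223 FPKM in AstroEGFR*, to 1357 and 1689 FPKM in PT1 and PT4 and to 145 and 131 FPKM in PT2 and PT3; of 6 tested, 5 had the higher mean in PT and 0 were called by limma. Endothelial markers summed to at most 14.4 FPKM in any library, with *Cldn5* and *Pecam1* at most at 0.137. The values are from whole cultures, in which fewer cells of a type and less RNA per cell cannot be told apart.

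Forced expression of *Zfp423* in AstroEGFR* was compared within each astrocyte batch, to see which genes the factor alters before any tumour forms. No collagen passed the test with all 3 batches in the fit. Of 26 collagens that averaged 1 FPKM or more in these 6 libraries, 0 were called by limma with the batch as a block, where 0% of all 12366 features were called. At an unadjusted p below 0.05, 0 of 26 collagens and 7.38% of all features passed. The median difference over the 26 was 0.12, beside 0.020 over all features.

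That median joined batches that lay on opposite sides. In batches 1 and 2 the *Zfp423* culture was above its AstroEGFR* batch, with a median over the 26 collagens of 1.84 and 1.57 on the log2(FPKM + 1) scale, and in batch 3 it was below, with −3.09. Each batch is 1 library against 1, so this has no replicate check, and the difference between batches was not tested. A difference of at least 1 upwards was seen for 21 (80.8%), 18 (69.2%) and 0 of the 26 in batches 1, 2 and 3, against 11.2%, 12.3% and 9.70% of all features. Downwards it was seen for 1 (3.85%), 3 (11.5%) and 19 (73.1%), against 7.83%, 11.96% and 16.5%. The whole sequence, up by at least 1 in batches 1 and 2 and down by at least 1 in batch 3, was found in 16 of 26 collagens (61.5%) and in 2.54% of all features. This sequence was defined after the values were seen, and 0 collagens differed by at least 1 in the same direction in all 3 batches.

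**Figure D5:**
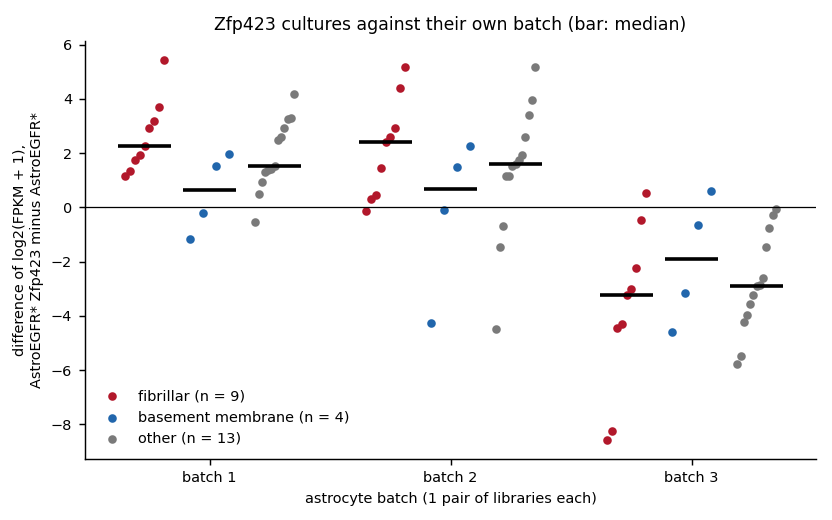
Points give, for each of 26 collagen genes, the difference of log2(FPKM + 1) between the *Zfp423* culture and the AstroEGFR* culture of the same batch, by class, with bars for the class median. Fibrillar medians are 2.28, 2.41 and −3.21 in batches 1, 2 and 3, and most points are above 0 in the first and second batch and below 0 in the third.

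Of the 3 classes, fibrillar chains had the medians farthest from 0 in each batch, a difference between classes that was not tested. Their median over 9 genes was 2.28, 2.41 and −3.21 in batches 1, 2 and 3, and 9, 6 and 0 of them were up by at least 1. *Col3a1* had 1760, 1590 and 2.74 FPKM with *Zfp423*, which was 44.7 and 37.0 times its AstroEGFR* level in batches 1 and 2 and 407 times below it in batch 3. *Col1a1* had 946, 1946 and 3.83 FPKM, or 9.19 and 21.4 times above and 474 times below its own batch. *Col1a2* had 1558, 2641 and 216 FPKM, 13.1 and 7.70 times above and 8.11 times below. *Col1a2* was the leading collagen of the batch 3 culture, at 36.7% of its sum, in place of *Col1a1* in AstroEGFR*3, with a *Col1a1* to *Col1a2* ratio of 0.0177, where the first and second *Zfp423* libraries had 0.607 and 0.737. *Col5a1* and *Col5a2* had the same sequence, with 178, 276 and 34.7 FPKM and 440, 665 and 47.8 FPKM. *Col5a3* did not, at 13.8, 12.2 and 15.2 FPKM.

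Within type IV, the *Col4a1* and *Col4a2* pair followed the fibrillar chains and the *Col4a5* and *Col4a6* pair did not. *Col4a1* had 541, 657 and 66.3 FPKM with *Zfp423* and *Col4a2* had 193, 264 and 12.5 FPKM. In *Col4a5* the values were 34.7, 52.8 and 42.6 FPKM, each below its own batch. *Col4a6* had 18.7, 1.08 and 28.8 FPKM, below its own batch in batches 1 and 2 by 1.17 and 4.28 on the log2 scale and above it in batch 3 by 0.62. Over the 4 type IV chains tested the medians were 0.65, 0.70 and −1.91.

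The other collagens had medians of 1.53, 1.61 and −2.89 over 13 genes. The type VI chains *Col6a1*, *Col6a2* and *Col6a3* were all up by at least 1 in batches 1 and 2 and down by at least 1 in batch 3. Their medians were 2.48, 3.42 and −5.46, farther from 0 than those of the fibrillar class. *Col6a3* spanned the largest range of these, at 108, 166 and 0.0494 FPKM. *Col12a1* had 115, 101 and 4.95 FPKM, the last of which lies within the range of PT (2.23 to 7.40). *Col18a1*, at 36.3, 54.1 and 2.98 FPKM, had the same sequence as the chains it opposed in PT. *Col8a1* had 403, 141 and 57.1 FPKM, 1.41 times above, 1.62 times below and 7.54 times below its batch.

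The share of small non-coding RNA was high in both libraries of batch 2, at 29.6% and 35.9%, and in batches 1 and 3 it was low in the AstroEGFR* library and high in the *Zfp423* library. Sums of cell type markers also differed between libraries. The part of either in the split was not tested. Microglia markers summed to 463 and 287 FPKM in the *Zfp423* libraries of batches 1 and 2 and to 0.156 FPKM in that of batch 3, against 5.79 to 38.6 FPKM in AstroEGFR*, and all 7 of them were up by at least 1 in batches 1 and 2. Over the 8 astrocyte markers the sums were 199, 62.2 and 893 FPKM with *Zfp423* and 572, 438 and 1069 FPKM in AstroEGFR*, so the sums were lower with *Zfp423* in all 3 batches. Single markers were not: 5, 8 and 2 of the 8 were down by at least 1 in batches 1, 2 and 3, and 1, 0 and 1 were up. The 1 up in batch 3 was *Aldh1l1*, by 1.47. Over all features, 7.83%, 11.96% and 16.5% were down by at least 1 in batches 1, 2 and 3, and 11.2%, 12.3% and 9.70% were up. Fibroblast and meninges markers summed to 628, 908 and 164 FPKM with *Zfp423* and to 252, 145 and 1106 FPKM in AstroEGFR*. In the *Zfp423* library of batch 3, *Prrx1* (119 FPKM) and *Twist1* (37.9 FPKM) led that sum, while *Postn* was at 0.0396 FPKM. Of 10 tested, 4, 4 and 0 were up by at least 1 in batches 1, 2 and 3, and 1, 2 and 7 were down. Pericyte and smooth muscle markers summed to 1658, 3163 and 131 FPKM with *Zfp423* and to 1433, 1121 and 3623 FPKM in AstroEGFR*. Oligodendrocyte lineage markers summed to 38.3, 54.6 and 161 FPKM with *Zfp423* and to 223, 130 and 66.8 FPKM in AstroEGFR*, lower with *Zfp423* in batches 1 and 2 and higher in batch 3. Among the AstroEGFR* and *Zfp423* libraries, the level of *Zfp423* was highest, at 105 FPKM, in the culture with the lowest collagen sum. Synthesis and processing genes had median differences of 0.54, 0.78 and −1.36 in batches 1, 2 and 3, nearer to 0 than those of the chains. Of 23 tested, 3, 1 and 16 were down by at least 1 in batches 1, 2 and 3, and 4, 7 and 1 were up. A fall in batch 3 was thus not particular to the chains, of which 19 of 26 were down there, against 16.5% of all features.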

How the data were processed

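RNAseq of 10 libraries was used, 3 AstroEGFR*, 4 PT and 3 AstroEGFR* *Zfp423*, each library from its own culture. FPKM values of 23230 features, named by gene symbol, were deposited by the authors as 1 matrix, and every column was used. The submitters' processing notes name TopHat 1.3, Cuffnorm and mm9, without their roles. The labels name a TruSeq RNA kit, whereas the study describes ribosomal RNA removal and stranded kits. FPKM hold no counts, so no count model was used and the precision that depth gives each value is unknown. Relative depth is the mode of the FPKM ratio to AstroEGFR*1 *Zfp423* among features that at least 5 libraries list at 0.

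The comparison of PT with AstroEGFR* used limma 3.58.1 (R 4.3.3) on log2(FPKM + 1) of features averaging 1 FPKM or more, with empirical Bayes, a trend and Benjamini-Hochberg adjustment over all of them at 0.05. Fold changes on this scale understate those of low genes. AstroEGFR* *Zfp423* and AstroEGFR* were compared likewise with the astrocyte batch as a block. Replicates are separate cultures. The paired fit of PT and all comparisons of PT with the own batch follow the study's scheme of batches, not the labels. Deviations of each PT library from its group mean correlated with those of its own AstroEGFR* batch (r = 0.35 to 0.50). AstroEGFR*2 and PT2 also shared a high share of small non-coding RNA, and AstroEGFR*3 and PT3 a low depth. These correlations therefore cannot tell shared origin from shared library traits. For *Zfp423* the own pairs had r = 0.239, −0.110 and −0.261, and pairs across batches had −0.230 to 0.305. The pairing there rests on the study's design. An exact permutation test was added for single genes.

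Members, lists, tests and alternatives were chosen with earlier results of these data known. Collagens were described singly if they were called, were among the 3 highest of their class, had groups without overlap and a log2 difference of at least 2, differed by at least 1 in the same direction in all batches with *Zfp423*, or were partner chains of such genes. *Col2a1*, *Col7a1*, *Col9a1*, *Col9a3*, *Col11a1*, *Col16a1* and *Col28a1* were named after their values were seen. Lists covered collagen synthesis, receptors, and markers of fibroblasts and meninges, endothelium, pericytes and smooth muscle, microglia, astrocytes, the oligodendrocyte lineage (sums of 38.3 to 1689 FPKM) and neurons (6.30 to 100.4 FPKM). Promoter windows were matched to RefSeq by symbol, and motifs searched on both strands, counting overlaps. Alternatives were a pseudocount of 0.1, no filter, median-ratio scaling, no trend, all libraries in 1 fit, PT1 and PT4 averaged, at least 2-fold, fits with and without the block, and libraries or batches left out. Python 3.11.15 with numpy 2.4.6, pandas 2.3.3, scipy 1.17.1 and matplotlib 3.10.9 was used.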

Additional observations from a re-analysis of the deposited data

Results flagged for a closer look

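*Col1a2* in PT had 1 culture far from the others. PT3 was the highest of the 4 at 94.9 FPKM, and its gap to the next library was 0.968 of the whole range on the log2(FPKM + 1) scale, above Dixon's critical value for 4 samples. It was 1 of 20 sets of 4 values examined, and chance gives about 1 such case in 20.

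The *Zfp423* culture of batch 3 lay on the other side of its own AstroEGFR* batch from those of batches 1 and 2 in each class of collagens. The median log2 difference was 2.28, 2.41 and −3.21 for the fibrillar genes in batches 1, 2 and 3. For the basement membrane genes it was 0.65, 0.70 and −1.91, and for the other collagens 1.53, 1.61 and −2.89. With 1 pair of libraries in each batch, the difference between batches was not tested.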

How the results depend on the processing

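In PT against AstroEGFR*, the number of collagens called was 1 in the fit reported. It was 0 with all 10 libraries in 1 fit and 0 without batch 2, 2 with a pseudocount of 0.1, and 5 with the replicate block, and it ran from 0 to 2 when libraries were left out in turn. Without batch 3 it was 1 again, but that gene was *Col1a2*. The median difference of −1.74 became −1.91 with PT1 and PT4 averaged, −1.86 without batch 2, −1.44 without batch 3, −0.61 without a filter and −2.30 with a pseudocount of 0.1, and ran from −2.25 to −1.49 over the libraries left out; the cause of these shifts was not tested beyond the fewer genes or libraries that each holds. Counts without overlap (12) and at an unadjusted p below 0.05 (11) stayed within 1.5 times under every library or batch left out, a choice made after seeing the data, at 9 to 14 and 8 to 13; over all features the share without overlap rose from 7.81% to between 9.34% and 14.5%, since fewer libraries were compared. *Col12a1* missed the threshold with all 10 libraries (adjusted p = 0.129) and without AstroEGFR*1, batch 2 or batch 3 (0.0615, 0.0586 and 0.0961), within a range of 0.0101 to 0.129. Over 17 genes described singly, 256 of 270 alternatives kept direction and side of the threshold, 9 moved past it, 4 lost it and 1 changed direction. That was *Col5a1*, at 0.10 without AstroEGFR*3, within a range of −1.31 to 0.10 over the libraries left out. Besides *Col5a1*, the differences that moved by over 1.5 times with a library or batch left out were those of *Col3a1* (−2.01), *Col4a2* (−1.54) and *Col6a2* (−1.80) without AstroEGFR*3, *Col18a1* (1.03) and *Col5a3* (0.80) without AstroEGFR*1, *Col5a3* without PT1 (0.91), *Col4a5* (−0.48) and *Col4a6* (−0.59) without PT2, *Col4a5* and *Col4a6* without batch 2 (both −0.44), and *Col6a2* (−1.48) and *Col5a3* (2.17) without batch 3. For *Zfp423*, 0 collagens were called in every alternative, also in the fit with no replicate block (2 of all features). Without batch 2 the fit called 51 features, 0 of them collagens. The median of 0.12 was −0.91, −0.62 and 1.86 without batch 1, 2 or 3. Of 153 alternatives for single genes, 19 changed direction, none of them called. With a pseudocount of 0.1 *Col6a2* was at −0.14. The rest came with 1 batch left out, where the fitted differences ran from −2.68 to 3.796 for *Col1a1*, −0.037 to 3.32 for *Col1a2*, −1.52 to 5.31 for *Col3a1*, −0.84 to 1.73 for *Col4a1*, −1.55 to 1.88 for *Col4a2*, −0.89 to 1.86 for *Col5a2*, −0.66 to 1.64 for *Col6a1*, −1.64 to 2.95 for *Col6a2*, −1.08 to 4.24 for *Col6a3*, −1.01 to 3.05 for *Col8a2*, −1.21 to 1.29 for *Col12a1* and −1.54 to 1.87 for *Col18a1*.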
